A study of Mus musculus with 7 samples.

Results

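Inhibitory receptors and their phosphatase were examined in natural killer (NK) cells of mouse spleen, as 8 genes of the 53379 in the count table: Cd22, Cd300lf, Cd300a, Lair1, Lag3, Lilrb4a, Ceacam1 and Ptpn6. Each gene was found by its symbol and had 1 row. All 8 passed the filter on low counts. RNA-seq libraries came from 4 Hhex KO and 3 Cre control samples, all C57BL/6 and taken ex vivo by sorting viable CD45+ CD3- NK1.1+ NKp46+ CD49b+ cells. Hhex encodes a homeobox transcription factor. Both groups are named for the deletion and its Cre control. The labels leave out the promoter that drives Cre, the deleted exons and the age and sex of the mice. The genes were chosen by their names as inhibitory receptors and by their measured counts in these 7 libraries, with the Hhex KO against Cre control differences known. Their values in that comparison are therefore a description and carry no test.

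Inhibitory receptors of this kind hold immunoreceptor tyrosine-based inhibitory motifs (ITIMs) in their cytoplasmic tails. When the receptor meets its ligand, Src family kinases phosphorylate the tyrosine, and the site recruits phosphatases with SH2 domains. SHP-1, encoded by Ptpn6, is the main one in lymphocytes, and it removes phosphate from proteins of activating pathways. In NK cells such receptors restrain killing and cytokine release. CD22 is a sialic acid-binding lectin best known from B cells, and the CD300 proteins bind lipids exposed on cells. LAIR1 binds collagen, and LILRB4 is an inhibitory receptor of myeloid and activated cells. CEACAM1 binds other CEACAM1 molecules. LAG3 binds MHC class II and signals without a classical ITIM.

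The longest annotated coding transcript of each gene (GENCODE M21, GRCm38) was translated and searched for the ITIM pattern. The pattern was serine, isoleucine, leucine or valine, then any residue, tyrosine, any 2 residues, and isoleucine, leucine or valine. Sites were kept where they lie after the last hydrophobic stretch, which was a window of 19 residues with a mean hydropathy of at least 1.6. A match is a letter pattern and not a shown phosphorylation site, since 48.8% of 21760 mouse proteins held it somewhere. It lay after the last such stretch in 26.1% of the 7642 proteins that have one. Cd22 held 4 sites, Cd300lf, Cd300a, Lair1 and Lilrb4a 2 each, and Ceacam1 1. Lag3 held none in its 521 residues, and Ptpn6 encodes the phosphatase and no receptor, so the name ITIM receptor covers 6 of the 8. The coding bases are given 5′ to 3′ in transcript sense, with the tyrosine codon in capitals.
Cd22 site 1: gttagtTATgccatcttg
Cd22 site 2: gtcactTACtcggtgata
Cd22 site 3: atccatTACtcagagctg
Cd22 site 4: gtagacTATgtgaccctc
Cd300lf site 1: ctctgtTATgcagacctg
Cd300lf site 2: gtttcaTATgccgctctg
Cd300a site 1: gtggaaTATagcacattg
Cd300a site 2: cttcacTATtcatccgtg
Lair1 site 1: gtgacgTATatccagctg
Lair1 site 2: agcacaTATgcagccatc
Lilrb4a site 1: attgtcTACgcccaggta
Lilrb4a site 2: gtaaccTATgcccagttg
Ceacam1 site 1: gtcgcaTACactgtcctg
The Cd22 sites lie in exons 14, 15 and 16 of 16, on the minus strand, from chr7:30867494-30867511 for site 1 to chr7:30866540-30866557 for site 4. The Cd300lf sites lie in exons 6 and 7 of 7, at chr11:115117648-115117665 and chr11:115117112-115117129, also on the minus strand. Reads were counted over whole genes, so the counts do not show whether the exons of these sites were included.

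Total counts ranged from 10589915 to 18456404 per library. Levels are in CPM, the count as a share of the TMM-scaled library size. Fold changes are from edgeR, with Cre control as the base. Hhex itself ranged from 93.5 to 96.1 CPM in the controls and from 54.2 to 64.8 CPM in the libraries labelled Hhex KO. The labels do not say that samples came from separate animals, so the spread between libraries may in part be technical. All 12 NK marker genes, among them Ncr1 and Eomes, were read in every library. They summed to 17909 to 23139 CPM in the controls, against 14401 to 18887 CPM in Hhex KO. Of the 12, edgeR called 0 and DESeq2 called 1. Some Hhex KO libraries stood apart. Replicate 1 had the highest summed level of B cell markers other than immunoglobulin genes, replicate 2 that of neutrophil and of monocyte and macrophage markers. Replicate 4 carries the sample number 95 where the others have 20 to 28. The 12 T cell markers summed to 275 to 325 CPM in the controls, against 396 to 462 CPM in Hhex KO, and these ranges did not overlap. Of the 9 tested, Themis (log2 fold change 4.48 ± 0.39, edgeR adjusted p = 0.000585) and Trbc2 (0.54 ± 0.12, 0.0412) rose, and 7 had an unadjusted p under 0.05. The call of Trbc2 was lost with no filter (0.0524) and without Hhex KO replicate 2 or 3 or any Cre control library (up to 0.171). Trbc1 and Trbc2 were the largest parts of the T cell sum in every library. Trbc1 overlapped between the groups, at 120 to 155 CPM in the controls and 111 to 237 CPM in Hhex KO. Cd4, Cd8a and Cd8b1 were at 2.91 CPM or less in every library. The CD3 chain gene Cd3d was at 16.5 to 30.3 CPM in the controls, against 30.6 to 57.2 CPM in Hhex KO. Cd3g was at 15 to 24 CPM against 20.4 to 39.2 CPM, and Cd3e at 8.75 to 13.6 CPM against 10.6 to 25.7 CPM. The part of T cell RNA in the levels of the 8 genes was not tested. By a chi-square comparison of counts, Hhex KO replicates 1 and 4 (25.9 per degree of freedom) and replicates 2 and 3 (10.4) were closer to each other than across these pairs (62.8 to 71.5).

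Cd22 was higher and Cd300lf lower in Hhex KO, and the other 6 genes were not called. That is 1 gene higher and 1 lower of 8, where edgeR called 4.56% of the 12161 genes tested, 2.68% as higher and 1.87% as lower, at an adjusted p under 0.05. Since the genes were chosen with this comparison in view, nothing is read from these shares. Cd22 and Cd300lf were also the 2 genes of the 8 whose libraries did not overlap between the groups, which held for 19.3% of all tested genes (9.37% higher and 9.98% lower in Hhex KO). The median log2 fold change of all tested genes was 0.02.

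**Figure D1:**
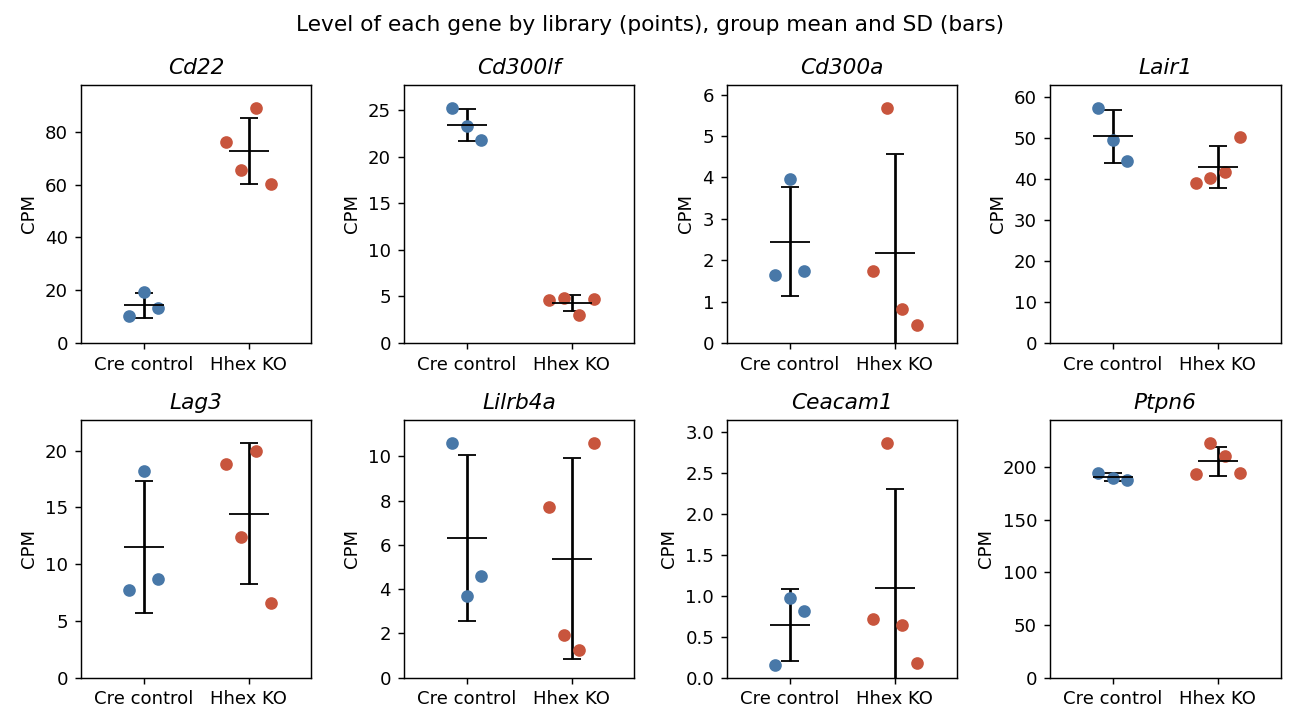
Level of the 8 genes in CPM (y axis, linear, from 0) in each Cre control (blue, n = 3) and Hhex KO (red, n = 4) library, with the group mean and SD in black. The groups separate for Cd22 and Cd300lf and overlap for the other 6, and the lower SD bars of Cd300a and Ceacam1 are cut at 0 in Hhex KO.

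Cd22 (ENSMUSG00000030577.14, chr7:30865402-30880342, minus strand) was at 10.1, 19.4 and 13.1 CPM in Cre control replicates 1, 2 and 3. In Hhex KO replicates 1, 2, 3 and 4 it was at 76.1, 65.5, 88.9 and 60.4 CPM. Every Hhex KO library lay above every control, and the lowest of them was at 60.4 CPM against 19.4 CPM in the highest control. The mean was 14.2 ± 4.76 CPM in the controls (SD, n = 3), against 72.7 ± 12.6 CPM in Hhex KO (SD, n = 4). That is a log2 fold change of 2.36 ± 0.24 (SE), or 5.13-fold. In bulk RNA, more cells with a transcript and more transcript per cell cannot be told apart.

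CD22 is a textbook B cell receptor, so B cell genes were read beside it. Pax5, the factor that fixes B cell identity, had 0 reads in Hhex KO replicates 3 and 4, whose Cd22 counts were 1509 and 682. Ms4a1 (CD20) had 1 read in each of these libraries, while Cd79b had 120 and 52. In Hhex KO replicate 1, Pax5 was at 4.92 CPM and Ms4a1 at 9.91 CPM, the highest of the 7 libraries, while its Cd22 level of 76.1 CPM lay within the range of the other Hhex KO libraries. The 15 B cell markers summed to 221 to 286 CPM in the controls, against 247 to 476 CPM in Hhex KO. The 11 that are not immunoglobulin genes summed to 2.92 to 6.07 CPM in the controls, against 4.96 to 52.8 CPM in Hhex KO. In Hhex KO replicate 4, 8 of the 15 markers were at 0. Ighm was at 209 to 253 CPM in the controls, and at 345, 394, 360 and 235 CPM in Hhex KO replicates 1 to 4. Igkc was at 5.3 to 23.8 CPM in the controls, and at 54.5, 65.4, 7.36 and 0.974 CPM in Hhex KO replicates 1 to 4. Left without Hhex KO replicate 1, Cd22 had a log2 fold change of 2.33. Whether B cell RNA added to the level of Cd22 was not tested.

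**Figure D2:**
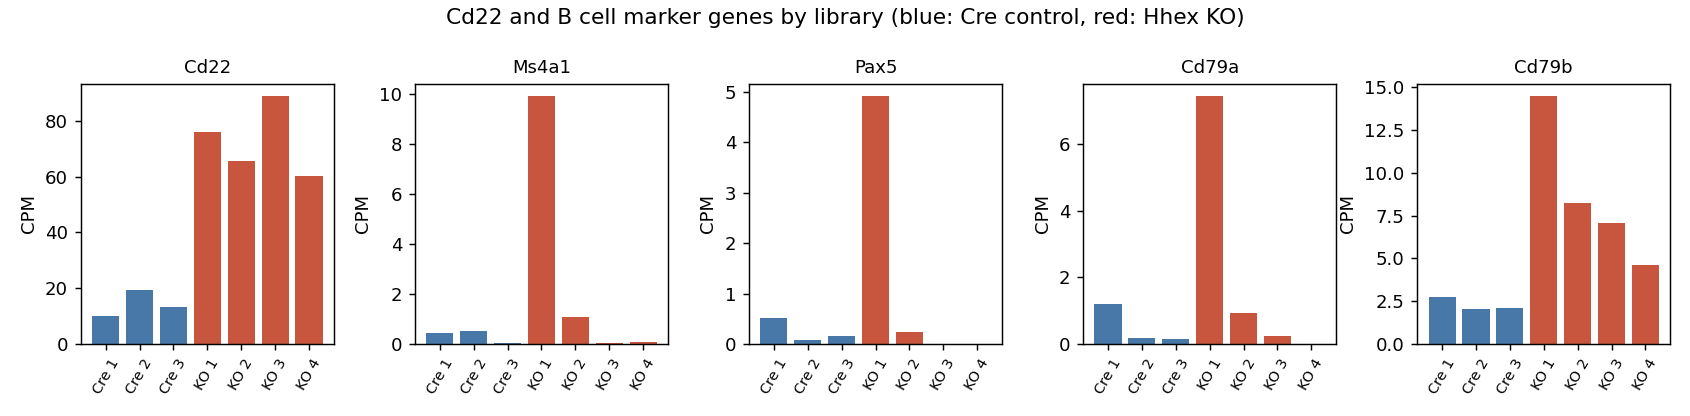
Level in CPM (y axis, linear, a scale for each panel) of Cd22 and of 4 B cell marker genes in each library, Cre control in blue and Hhex KO in red. Cd22 is at 60.4 to 88.9 CPM in all 4 Hhex KO libraries, while Pax5 reaches 4.92 CPM in Hhex KO replicate 1 and is at 0 in Hhex KO replicates 3 and 4. Cd79b is at 4.61 to 14.5 CPM in Hhex KO and at 2.02 to 2.77 CPM in Cre control.

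Of the B cell markers that could be tested, 1 of 6 was called, against 4.56% of all tested genes. Cd79b, a signalling chain of the B cell receptor, rose by 1.9 ± 0.39 on the log2 scale (edgeR adjusted p = 0.0292). Its mean was 2.3 ± 0.41 CPM in Cre control (SD, n = 3) and 8.61 ± 4.22 CPM in Hhex KO (SD, n = 4). It was above every control in all 4 Hhex KO libraries. Its partner Cd79a was at 7.45 CPM in Hhex KO replicate 1 and at 0 to 0.917 CPM in the others. Leaving out 1 library ended the call of Cd79b without Hhex KO replicate 2 and without any of the Cre control libraries, where the adjusted p reached 0.148. It was also lost with limma-voom on all libraries (0.0522).

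The promoter windows of Cd22 and Cd300lf are shown because these are the genes that differed. They run from 250 bases before to 50 after the RefSeq start (GRCm38.p6), and RefSeq gave such a window for 6 of the 8 genes. A pair of short motifs was searched on both strands, TAAT (ATTA), the core that many homeodomain proteins bind, and GGAA (TTCC), the core of ETS factor sites. Matches are in capitals.
Cd22 promoter: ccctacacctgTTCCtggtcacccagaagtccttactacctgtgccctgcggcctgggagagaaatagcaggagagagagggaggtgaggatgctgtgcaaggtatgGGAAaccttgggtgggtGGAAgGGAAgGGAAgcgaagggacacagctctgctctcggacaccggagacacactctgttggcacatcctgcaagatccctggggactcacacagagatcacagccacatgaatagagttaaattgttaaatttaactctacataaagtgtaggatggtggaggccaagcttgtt
Cd300lf promoter: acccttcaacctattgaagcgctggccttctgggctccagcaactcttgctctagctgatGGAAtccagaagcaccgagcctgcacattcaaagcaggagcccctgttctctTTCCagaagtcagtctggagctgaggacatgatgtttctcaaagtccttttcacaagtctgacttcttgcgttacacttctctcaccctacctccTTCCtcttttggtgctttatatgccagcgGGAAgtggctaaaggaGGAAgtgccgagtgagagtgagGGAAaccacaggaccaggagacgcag
The Cd22 window is chr7:30878979-30879278 and the Cd300lf window chr11:115133943-115134242, both on the minus strand. The Cd22 window lies inside the annotated gene, whose 5′ end is at chr7:30880342. Sequence around that end was not searched. TAAT matched 0 times in either window, and 57.9% of 32544 promoters of the same length hold it. GGAA matched 5 times for Cd22 and 6 times for Cd300lf, and 96.0% of promoters hold it. These letters describe the windows and say nothing about which factors bind there.

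Cd300lf (ENSMUSG00000047798.15, chr11:115116214-115133992, minus strand) encodes an inhibitory lipid receptor that is best known from myeloid cells. It was at 25.2, 23.3 and 21.8 CPM in Cre control replicates 1, 2 and 3. In Hhex KO replicates 1, 2, 3 and 4 it was at 4.66, 4.81, 2.95 and 4.69 CPM. No library of one group reached the other, and within Hhex KO replicate 3 lay below the rest. The mean was 23.4 ± 1.70 CPM (SD, n = 3) against 4.28 ± 0.891 CPM (SD, n = 4). The difference was -2.45 ± 0.19 (SE) on the log2 scale, so that Cre control was 5.48-fold higher.

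Myeloid markers were read beside Cd300lf, and their summed levels overlapped between the groups. The 15 monocyte and macrophage markers summed to 184 to 302 CPM in the controls, against 228 to 536 CPM in Hhex KO. Much of this sum came from Fcgr3, at 92.2 to 124 CPM in every library, and from Ctss. Csf1r, the receptor that defines macrophages, was highest in Hhex KO replicate 2 (21.7 CPM) and Cre control replicate 2 (14.8 CPM). It was at 2.85 CPM in Cre control replicate 1, where Cd300lf was at its highest. In Hhex KO replicates 1, 3 and 4, Csf1r was at 5.5, 2.42 and 0.62 CPM. Lyz2 was at 25.3 to 86.1 CPM in the controls, and at 30.9, 200, 12.2 and 5.05 CPM in Hhex KO replicates 1 to 4. Both genes were thus below every control in Hhex KO replicates 3 and 4, which the sums do not show. Ctss, the protease cathepsin S, was the 1 of 12 tested markers on this list that was called, against 4.56% of all tested genes. It rose by 1.35 ± 0.20 on the log2 scale (edgeR adjusted p = 0.00874). It was at 37.4 to 55.2 CPM in the controls, against 95.1 to 146 CPM in Hhex KO. Its call was lost without Cre control replicate 1 or 3, with an adjusted p of up to 0.0582. Whether myeloid RNA added to the level of Cd300lf was not tested.

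Cd300lf lies in a cluster of related genes on chromosome 11, 211.6 kb from Cd300a. The other CD300 genes include activating and inhibitory receptors of myeloid cells. Of the 10 found in the table, none passed the filter on low counts, 2 were at 0 in every library, and none was above 1.55 CPM in any. Cd300lf overlaps Rab37 on the opposite strand but shares 0 exon bases with it. Windows of 75 bases, the read length, were compared across the annotated transcripts. Of the Cd300lf windows, 1.12% also occur in Cd300ld.

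Cd300a and Ceacam1 were barely read, and their level followed single libraries. Cd300a (ENSMUSG00000034652.12, chr11:114890041-114904654), a receptor for phospholipids on dying cells, was at 1.65, 3.96 and 1.73 CPM in Cre control replicates 1, 2 and 3. In Hhex KO replicates 1, 2, 3 and 4 it was at 1.75, 5.67, 0.825 and 0.443 CPM. Replicate 2 was the highest library of either group, and the groups overlapped. Its log2 fold change was -0.13 ± 0.78, and -1.23 without Hhex KO replicate 2. Ceacam1 (ENSMUSG00000074272.10, chr7:25461707-25477603) had counts of 2, 11 and 15 in Cre control and of 11, 50, 11 and 2 in Hhex KO. Hhex KO replicate 2 held 50 of its 102 reads. Its log2 fold change was 0.81 ± 0.87, and -0.27 without Hhex KO replicate 2.

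That library stood apart in myeloid genes too. The 10 neutrophil markers summed to 478 CPM in Hhex KO replicate 2. The sum was 15.1 to 83.4 CPM in Hhex KO replicates 1, 3 and 4, and 24.4 to 59.8 CPM in the controls. In Hhex KO replicate 2 the largest parts of the sum were S100a9 (146 CPM), Ngp (133 CPM) and S100a8 (112 CPM). Ly6g and Cxcr2, which define neutrophils, were at 0.458 and 2.75 CPM in that library, for each the highest of the 7. Csf1r put the 7 libraries in the same order as Cd300a did, with Hhex KO replicate 2 and Cre control replicate 2 on top and Hhex KO replicates 3 and 4 at the bottom. The part of these markers in the levels of Cd300a and Ceacam1 was not tested. Of the Ceacam1 windows, 24.2% also occur in Ceacam2, its close relative, so that the counts of Ceacam1 are uncertain.

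**Figure D3:**
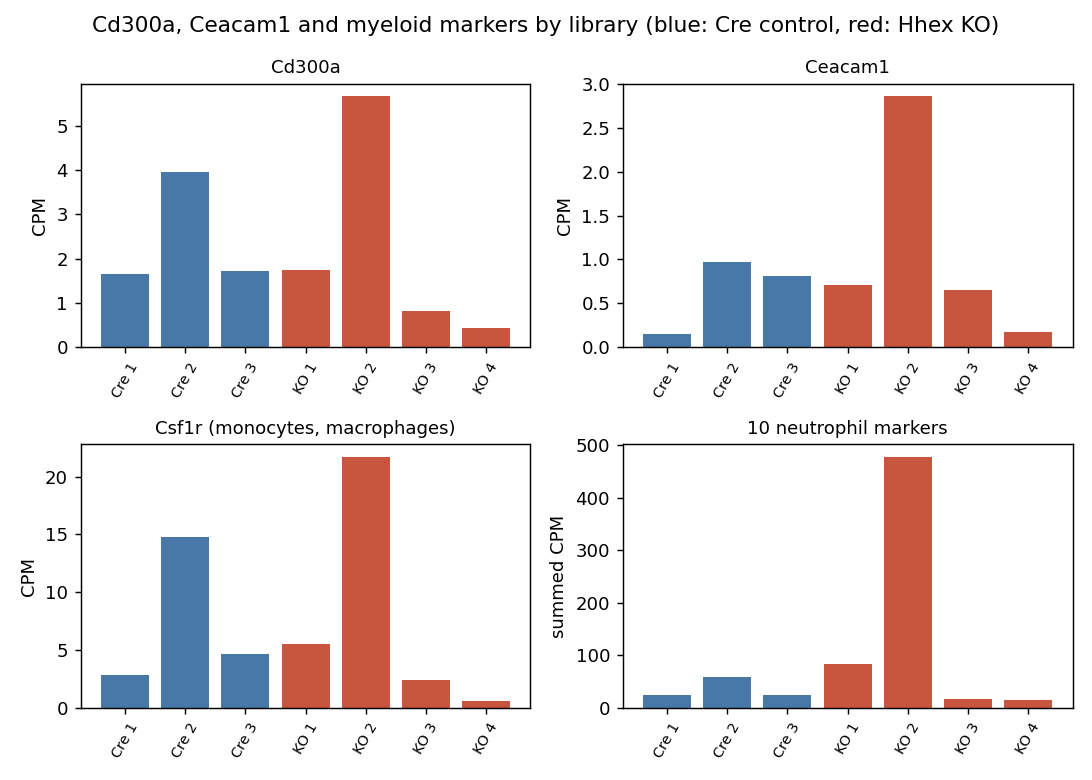
Level in CPM of Cd300a, Ceacam1 and Csf1r, and summed CPM of 10 neutrophil markers (y axes, linear), in each library, Cre control in blue and Hhex KO in red. Hhex KO replicate 2 is the highest library in all 4 panels, at 5.67, 2.86, 21.7 and 478.

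Lilrb4a (ENSMUSG00000112148.1, chr10:51490956-51496611) varied more between libraries of a group than between the groups. It was at 10.6, 3.70 and 4.59 CPM in Cre control replicates 1, 2 and 3. In Hhex KO replicates 1, 2, 3 and 4 it was at 7.71, 1.95, 1.24 and 10.6 CPM. Hhex KO replicates 1 and 4 and Cre control replicate 1 were high and the other libraries low, an 8.59-fold range within Hhex KO. A log2 fold change of -0.25 ± 0.73 resulted. When each library was left out in turn, it ranged from -0.80 to 0.35.

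Lilr4b, the neighbouring gene, is 96.0% identical to Lilrb4a over 907 aligned coding bases. Its longest protein had 37 residues after the last hydrophobic stretch, with 0 ITIM matches, against 69 residues and 2 matches for Lilrb4a. Lilr4b was at 24.8, 9.42 and 11.8 CPM in Cre control and at 22.1, 6.24, 5.36 and 20.5 CPM in Hhex KO. The same 3 libraries were high. The Hhex KO libraries thus fell into the pairs 1 with 4 and 2 with 3, as they did in the chi-square comparison of all counts. Of the Lilrb4a windows, 40.3% occur in another gene, most often in Gm49339, an annotated gene on the same strand that shares 1846 of its exon bases and had 0 reads in every library. The sources used here do not say how reads in such shared exons were counted, so the level of Lilrb4a is uncertain.

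Lag3 (ENSMUSG00000030124.2, chr6:124904361-124911705, minus strand) is the receptor for MHC class II that marks activated and exhausted lymphocytes. It was at 7.72, 18.2 and 8.65 CPM in Cre control replicates 1, 2 and 3. In Hhex KO replicates 1, 2, 3 and 4 it was at 18.8, 12.4, 20 and 6.55 CPM. Hhex KO replicate 4 was the lowest library and Cre control replicate 2 was among the high ones, so that the groups overlapped. The log2 fold change was 0.34 ± 0.43. Leaving out Cre control replicate 2 gave 0.82, and the 7 such values ranged from 0.12 to 0.82.

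**Figure D4:**
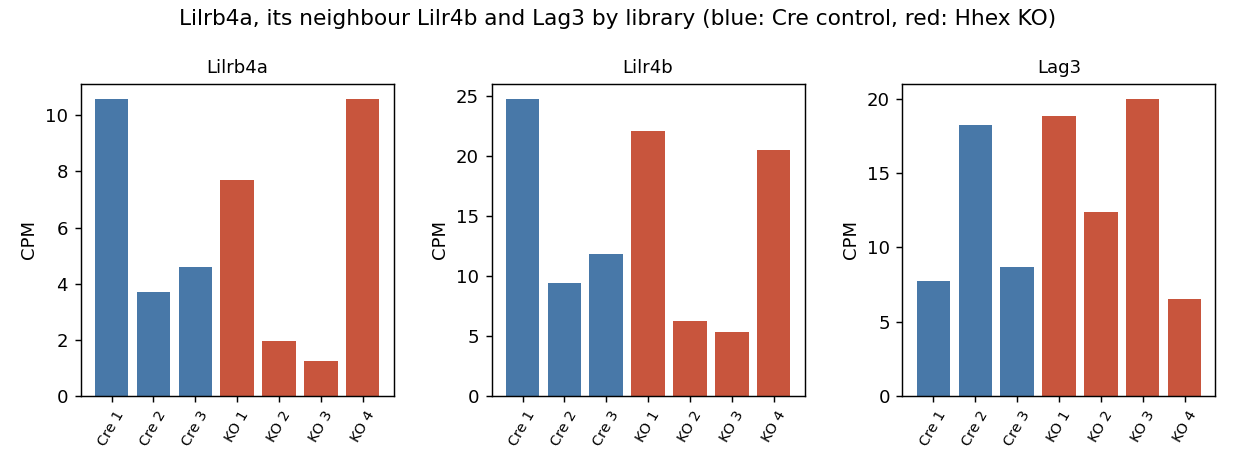
Level in CPM (y axes, linear) of Lilrb4a, its neighbour Lilr4b and Lag3 in each library, Cre control in blue and Hhex KO in red. Lilrb4a and Lilr4b are high in Cre control replicate 1 and Hhex KO replicates 1 and 4, whereas Lag3 is low in Cre control replicate 1 (7.72) and Hhex KO replicate 4 (6.55).

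Lair1 (ENSMUSG00000055541.17, chr7:4003402-4063204, minus strand), the collagen receptor, was at 57.2, 49.5 and 44.4 CPM in Cre control replicates 1, 2 and 3. In Hhex KO it was at 38.9, 40.3, 41.7 and 50.3 CPM in replicates 1 to 4. Hhex KO replicates 1, 2 and 3 lay below every control and replicate 4 above the 2 lower ones. The log2 fold change was -0.23 ± 0.13. Of its windows, 0.746% occur in another gene.

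Ptpn6 (ENSMUSG00000004266.15, chr6:124720707-124738714, minus strand), which encodes the phosphatase SHP-1, lies 165.6 kb from Lag3 and was the steadiest of the 8. It was at 195, 190 and 188 CPM in Cre control. In Hhex KO replicates 1, 2, 3 and 4 it was at 194, 223, 211 and 195 CPM. The highest library was 1.15-fold above the lowest within Hhex KO. The log2 fold change was 0.11 ± 0.11, and it ranged from 0.07 to 0.13 when each library was left out in turn. Gm20531, antisense to it, had at most 0.177 CPM.

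Levels per length put the genes in order. RPKM here are CPM per kilobase of annotated exon sequence. Ptpn6 led in both groups, at 68.1 ± 1.41 RPKM (SD, n = 3) in Cre control and 73.3 ± 4.9 RPKM (SD, n = 4) in Hhex KO. In Cre control it was followed by Lair1 (6.74 RPKM), Lag3 (5.47), Cd300lf (4.55), Cd22 (2.82), Lilrb4a (1.21), Cd300a (0.516) and Ceacam1 (0.111). Ptpn6 and Lair1, Cd300lf and Cd22, and Cd300a and Ceacam1 were the neighbours whose libraries did not overlap. In Hhex KO, Cd22 was the highest of the receptors at 14.4 ± 2.5 RPKM (SD, n = 4), above Lag3 (6.86) and Lair1 (5.73) in every library. Ptpn6 and Cd22, Cd22 and Lag3, and Lair1 and Lilrb4a were the neighbours there whose libraries did not overlap. Cd300lf, at 0.831 ± 0.173 RPKM (SD, n = 4), lay between Lilrb4a (1.03) and Cd300a (0.458) and overlapped both.

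Other inhibitory receptors were read from lists that do not hold the 8 genes, though earlier results of these data were known when the lists were made. Over all tested genes, 4.56% were called and 19.3% did not overlap between the groups. These shares stand beside the counts and separations given for this list and those below. No result about a list is read from a single call. Of 17 tested receptors of the immunoglobulin and related families, 1 was called, or 5.88%, with a median log2 fold change of 0.29. DESeq2 called 2 of them, and limma-voom with sample quality weights called 7, of which 5 were higher and 2 lower. Cd200r1, the receptor for CD200, rose by 1.19 ± 0.23 on the log2 scale (edgeR adjusted p = 0.0253). Its mean was 2.77 ± 0.128 CPM in Cre control (SD, n = 3) and 6.31 ± 1.39 CPM in Hhex KO (SD, n = 4). It was above every control in all 4 Hhex KO libraries. Its call was lost without Hhex KO replicate 1 or 3 and without any Cre control library (adjusted p 0.0512 to 0.123). For Cd160, a receptor for HVEM, the log2 fold change was 0.66 ± 0.17 (adjusted p = 0.0676). That of Cd72, a B cell and NK cell lectin, was -0.29 ± 0.10 (0.14), and that of Cd96, which binds CD155, was -0.32 ± 0.11 (0.144).

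Of 9 inhibitory lectin receptors of NK cells, 1 was called, against 4.56% of all tested genes, with a median of -0.15. Klrb1b, which binds Clec2d, rose by 1.00 ± 0.12 on the log2 scale (edgeR adjusted p = 0.00395) and was called in all 15 alternatives. Its mean was 178 ± 14 CPM in Cre control (SD, n = 3) and 355 ± 31.8 CPM in Hhex KO (SD, n = 4). For Klrg1, which binds cadherins, the log2 fold change was -0.52 ± 0.13 (adjusted p = 0.0643), for Klra9 -0.72 ± 0.20 (0.0844) and for Klrc1, the NKG2A chain, 0.41 ± 0.18 (0.265). Klra and Klrc genes have near-identical copies, so their counts are uncertain.

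Downstream of the receptors, 1 of 22 phosphatases, adaptors and ligases of inhibitory signalling was called, with a median of 0.00. That is 4.55%, against 4.56% of all tested genes. Inppl1, the inositol phosphatase SHIP2, was at 34.8, 28.9 and 33.7 CPM in Cre control and at 92.2, 71.7, 60.2 and 60.8 CPM in Hhex KO. It rose by 1.13 ± 0.17 on the log2 scale (edgeR adjusted p = 0.00957), higher in 4 of 4 Hhex KO libraries. The call was lost without Cre control replicate 1 (0.0573) or 3 (0.0584). The log2 fold changes of the next genes were -0.33 ± 0.14 for the adaptor Dok2 (adjusted p = 0.253), 0.24 ± 0.11 for the phosphatase gene Ptpn22 (0.271) and -0.33 ± 0.15 for Ptprc (0.308), which encodes CD45.

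Among 13 tested Src, Syk and Tec kinases, which phosphorylate ITIMs or carry the opposing signal, 1 was called and the median was 0.00. The share called was 7.69%, against 4.56% of all tested genes. Fgr, a Src family kinase, rose by 0.69 ± 0.14 on the log2 scale (edgeR adjusted p = 0.0308). Its mean was 42.7 ± 5.69 CPM in Cre control (SD, n = 3) and 69 ± 8.69 CPM in Hhex KO (SD, n = 4). Each Hhex KO library lay above each control. The call was lost when any library other than Hhex KO replicate 4 was left out (adjusted p 0.0544 to 0.146). Tec, Zap70 and Src had log2 fold changes of -0.20 ± 0.14, 0.14 ± 0.12 and -0.57 ± 0.49 (adjusted p 0.543 to 0.62).

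Of 16 activating adaptors and SHP-1 substrates, 1 was called, or 6.25% against 4.56% of all tested genes, with a median of -0.08. Gab2, a docking adaptor, was at 31.8, 29.7 and 36.3 CPM in Cre control and at 21, 16.3, 13.4 and 14.4 CPM in Hhex KO. It fell by 1.00 ± 0.17 on the log2 scale (edgeR adjusted p = 0.0148), lower in 4 of 4 Hhex KO libraries. The call was lost without Cre control replicate 1 (0.0767) or 3 (0.0945). Vav3, Crk and Plcg1 had log2 fold changes of -0.27 ± 0.13, -0.18 ± 0.12 and 0.37 ± 0.29 (adjusted p 0.334 to 0.577).

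Ligands of these receptors, and enzymes that make them, were called in 0 of 12 tested genes by edgeR, by DESeq2 and by limma-voom, with 1 at an unadjusted p under 0.05 and 1 called by limma-voom with sample quality weights. The median log2 fold change was 0.37. For Cmah, which makes the sialic acid that mouse CD22 prefers, the log2 fold change was 0.56 ± 0.21 (edgeR adjusted p = 0.199). St6gal1, which attaches sialic acid in the linkage that CD22 binds, had 0.90 ± 0.43 (0.31). H2-Ab1, a chain of the MHC class II ligand of LAG3, had 1.27 ± 0.76 (0.438) and was highest, at 26 CPM, in Hhex KO replicate 1. Lgals3, another ligand of LAG3, had 0.34 ± 0.27 (0.568).

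**Figure D5:**
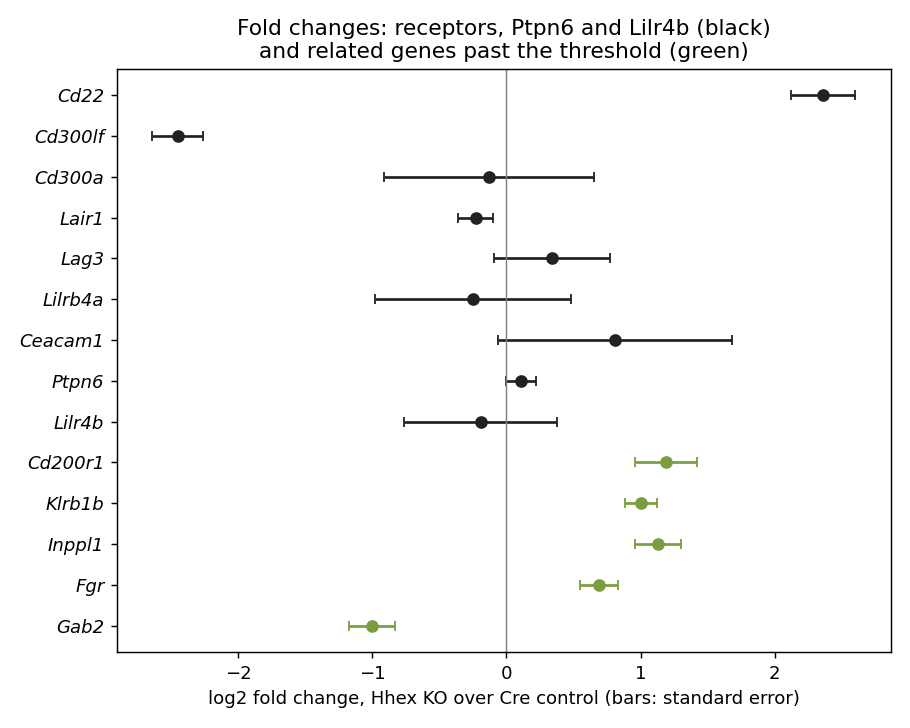
Log2 fold change of Hhex KO over Cre control (x axis) with its standard error, for the 8 genes and Lilr4b (black) and for the 5 related genes that passed the threshold (green). Cd22 (2.36) and Cd300lf (-2.45) lie farther from 0 than the related genes, and the bars of Cd300a, Lilrb4a and Ceacam1 are the widest.

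The genes whose pattern over the 7 libraries was most like that of Cd22 were sought among 9356 tested genes. These had a log2 CPM averaging 2 or more and a symbol that is not a predicted, clone or pseudogene name. Likeness was the root-mean-square difference of log2 CPM after each gene's mean was removed. This measure takes in the difference between the groups, so genes with a fold change like that of Cd22 or Cd300lf rank near by construction. Tmem176b, a membrane protein of myeloid and innate lymphoid cells, was nearest (0.18), followed by Gpr34, a receptor for lysophosphatidylserine (0.20), and Fam81a (0.21). Tmem176b was at 7.29 ± 2.05 CPM (SD, n = 3) in Cre control and 38.8 ± 10.1 CPM (SD, n = 4) in Hhex KO. For Cd300lf the nearest were the cadherin gene Cdh22 (0.10), the tight junction scaffold gene Tjp1 (0.23) and the mitochondrial transporter gene Sfxn2 (0.31). Cdh22 was at 58.1 ± 5.67 CPM (SD, n = 3) in Cre control and 9.85 ± 1.67 CPM (SD, n = 4) in Hhex KO.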

How the data were processed

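The authors deposited raw read counts per gene, not normalized, with 1 column for each of 7 libraries. Per the labels' protocols, RNA was prepared with a directional kit and read as 75 bp single ends. STAR, featureCounts and mm10 are named in the submitters' processing notes. The sources used here give no versions, annotation release or strand setting. Columns were matched to samples by description and title. Gene IDs without version matched the name table for 99.8% of rows. Coordinates and exon lengths are from GENCODE M21 (GRCm38, also called mm10), 1-based.

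Counts were tested with edgeR 4.0.16 in R 4.3.3 (filter by group with minimum count 10 and total 15, TMM, robust quasi-likelihood F test, no covariate, Benjamini-Hochberg over 12161 genes, threshold 0.05). The standard error is the log2 fold change divided by the square root of F. On simulated counts of these 12161 genes, 5 of 67 changes of 1.5-fold, 41 of 67 of 2-fold and 54 of 66 of 4-fold were recovered. The alternatives changed the scaling (RLE, upper quartile), the filter (none, or 10 CPM in at least 3 libraries) or the tool (DESeq2 1.42.0, or voom of limma 3.58.1, also with sample quality weights), added a replicate block, or left out each library.

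The 8 genes and all lists were chosen with earlier results of these data known. Genes named beside them were the 4 with the smallest p in each list, every called gene of a list, and the 3 nearest in pattern to Cd22 and Cd300lf. Called marker genes were named after their values were seen.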

Additional observations from a re-analysis of the deposited data

Results flagged for a closer look

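Within the 4 Hhex KO libraries, a library was singled out where its gap to the next, divided by the range, was above Dixon's critical value for 4 samples. Of 52 sets of values examined, 5 had such a library, and chance gives about 1 in 20. Cd300lf was at 2.95 CPM in Hhex KO replicate 3, below the other 3 libraries (gap 0.92 of the range). Trbc2, a T cell receptor constant region, was at 175 CPM in the same library (0.83). Summed monocyte and macrophage markers reached 536 CPM (0.85), and summed neutrophil markers 478 CPM (0.85), in Hhex KO replicate 2. B cell markers without the immunoglobulin genes reached 52.8 CPM in Hhex KO replicate 1 (0.86).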

How the results depend on the processing

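Cd22 and Cd300lf were called in the main test and in all 15 alternatives, with log2 fold changes of 2.16 to 2.64 and -2.54 to -2.30. The other 6 genes were called in none, and each log2 fold change moved by less than 1 SD between replicates. The widest move outside the left-out libraries was that of Lilrb4a, to -1.43 with quality weights. Leaving out 1 library gave 1 called gene higher and 1 lower of the 8 each time, and log2 fold changes of 2.16 to 2.64 for Cd22, -2.52 to -2.30 for Cd300lf, -1.23 to 0.38 for Cd300a, -0.32 to -0.14 for Lair1, 0.12 to 0.82 for Lag3, -0.80 to 0.35 for Lilrb4a, -0.27 to 1.16 for Ceacam1 and 0.07 to 0.13 for Ptpn6. The stricter filter left Cd300a, Lilrb4a and Ceacam1 out. Over all genes, 326 were called higher and 228 lower. These counts were 617 and 430 with DESeq2, 1541 and 1323 with limma-voom with sample quality weights, and 91 to 527 and 50 to 291 with 1 library left out. The cause was not tested. Higher calls moved by over 1.5 times without Hhex KO replicate 3 (189) or 4 (527) and without Cre control replicate 1 (91), 2 (153) or 3 (95). Lower calls did so without Hhex KO replicate 2 (151) or 3 (108) and without Cre control replicate 1 (50), 2 (82) or 3 (57). The stricter filter, which tests fewer genes, gave 186 higher. With quality weights, calls also numbered 4 of 9 inhibitory lectins (3 with DESeq2) and 2 each of the phosphatases, the kinases and the activating adaptors. Cd160 and Klra9 passed the threshold with DESeq2 (adjusted p = 0.00745 and 0.0116), and Klrg1 did too (0.00786).

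The replicate block on the 6 libraries numbered 1 to 3 gave 499 higher and 275 lower genes, with an adjusted p of 0.0536 for Trbc2. Deviations from the group mean correlated at 0.15, 0.57 and -0.08 between same-numbered libraries 1, 2 and 3. Not every library correlated best with its own number, as Cre control replicate 3 did so with Hhex KO replicate 1 (0.22). With so few libraries, these values cannot show whether same-numbered samples were paired. Changes of 1.5-fold were mostly missed at this depth and spread, and only 41 of 67 of 2-fold were recovered. This limits what can be said of the 6 genes that were not called. Larger changes could also be missed for Cd300a, Lilrb4a and Ceacam1. Their standard errors were 0.78, 0.73 and 0.87 on the log2 scale.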
